A study of Mus musculus with 19 samples.

Results

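Ribosome biogenesis genes, whose products make ribosomal RNA and build it into ribosomal subunits, were followed across 10 mouse liver tumours. The set was a list of 40 genes given by name, chosen out of 39179 gene identifiers in the table of read counts, and all 40 were found and passed the filter on low counts that left 12462 genes. The working label called them driven by MYC. Every tumour used here carried the same MYC transgene, so no tumour without MYC was compared and dependence on MYC was not measured. They are therefore called ribosome biogenesis genes. They fell into 5 roles, with 7 genes of RNA polymerase I and the nucleolar core, 3 of the box C/D particles, 4 of the box H/ACA particles, 10 of small subunit assembly and 16 of large subunit assembly.

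The study asked how liver tumours of defined genotype differ from one another, and RNA of whole tumours was sequenced as polyadenylated RNA. The 10 tumours, numbered 04 to 13, all came from male mice with the mutant allele Ctnnb1tm1Mmt (HET) and the transgene Gt(ROSA)26Sortm1(MYC)Djmy (HOM), both induced by the vector AAV8.TBG.PI.Cre.rBG at 640000000 genome copies per mouse. The TBG promoter limits Cre to hepatocytes, and tumour tissue still holds cells that Cre did not reach. The table names its columns by a number and a tag, and that number was taken to be the tumour number of the labels, a link that no source used here states. The tag takes 5 values, and tumours with the same tag (05 with 06, 07 with 08, 09 with 10, and 11, 12 and 13 together) may come from the same animal, so that every p-value below measures the spread between these samples. The mouse Myc gene was counted, and the human MYC transgene has no row of its own in the table, so whether reads of the transgene fell on the mouse gene was not tested. The labels name no age, and the control livers and the other tumours of the series were not analysed here.

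In the nucleolus, RNA polymerase I transcribes a long precursor RNA that is chemically modified, cut and folded while ribosomal proteins are added. Small nucleolar ribonucleoproteins (snoRNPs) guide the modifications, the box C/D class for methylation and the box H/ACA class for pseudouridine, and separate sets of assembly factors mature the small and the large subunit. MYC, which binds DNA together with MAX at the E-box CACGTG, is known for raising this whole programme in growing cells and in tumours, liver tumours among them.

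The E-box was searched in the RefSeq promoter windows (GRCm38.p6), each of 300 bases, most of them before a gene's start and the rest after it. Distances are counted from the start that the window was drawn around, which for Wdr43 and Nle1 lies inside the outer end of the gene. The motif reads the same on both strands. A window was on file for 34 of the 40 genes, and 7 of the 34 (20.6%) held CACGTG, beside 2187 of 27025 genes (8.09%) in the whole promoter table. Tcof1, Npm1, Fbl, Rrp12, Bop1 and Rrs1 had no entry. The 7 matches are shown with up to 10 bases on each side, because they are the members with the letters that MYC and MAX bind, and capitals mark the E-box.
Nop2, 60 bases before the start, chr6:125131813-125131838, plus strand: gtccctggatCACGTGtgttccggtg
Pes1, 2 bases after the start, chr11:3963967-3963992, plus strand: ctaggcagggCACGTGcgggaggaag
Nle1, 23 bases after the start, chr11:82908357-82908382, minus strand: ggttctcctcCACGTGgggacgcagg
Utp4, 15 bases after the start, chr8:106893645-106893670, plus strand: cgcaagcgcgCACGTGgggccggggc
Wdr43, 17 bases after the start, chr17:71616222-71616247, plus strand: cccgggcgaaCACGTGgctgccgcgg
Utp20, 37 bases after the start, chr10:88826765-88826787, minus strand: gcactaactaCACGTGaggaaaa
Mybbp1a, 40 bases after the start, chr11:72441357-72441376, plus strand: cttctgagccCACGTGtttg
Nop2 was the single member whose match lay before the start. The 100 bases before its start, from chr6:125131783-125131882 on the plus strand, are shown for that reason, again with the E-box in capitals.
Nop2: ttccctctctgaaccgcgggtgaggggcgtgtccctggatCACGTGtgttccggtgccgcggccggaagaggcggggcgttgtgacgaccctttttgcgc
A match is a description of the letters and not a bound site, and none of these files measured binding.

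Gene counts summed to between 11687034 and 36964427 per tumour, so that 3 counts, the limit used for a count of 0, stood for 0.0812 to 0.257 CPM. The least counted member was Ddx18, with 96 counts in its lowest library, and its counting error of 0.12 on the log2 scale was below its SD between tumours of 0.24. These limits cover counting error only. Hepatocyte markers summed to between 42630 and 63891 CPM, with all 13 matched markers found in every tumour, and endothelial markers to 107 to 645, matrix markers to 349 to 2523, macrophage markers to 113 to 344, bile duct markers to 13.6 to 146 and lymphocyte markers to 0.860 to 7.63 CPM.

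Abundance is given in counts per 1000000 gene counts of a tumour (CPM), scaled with TMM factors, and levels of different genes are compared as CPM per kb of the canonical transcript, or per kb of all annotated exons where that is named. Among the genes of RNA polymerase I and the nucleolar core, Ncl, which encodes nucleolin, had the highest level per kb, 76.5 ± 13.7 CPM per kb (SD, n = 10). Its abundance ran from 456 CPM in tumour 10 over a median of 648 to 845 CPM in tumour 06. Mybbp1a, a nucleolar protein that binds MYB, stood at 53.2 ± 8.94 CPM per kb. Npm1, the nucleolar chaperone nucleophosmin, stood at 44.1 ± 9.53 CPM per kb and was highest in tumour 07. Reads that fit several places were not counted, so the level of a gene with near-identical copies, such as Npm1 with its processed pseudogenes, is uncertain. Nolc1, which binds snoRNPs and RNA polymerase I, stood at 25.0 ± 6.88 CPM per kb. The polymerase subunits Polr1a and Polr1b and the polymerase cofactor Tcof1 were lower, at 10.1 ± 1.45, 9.21 ± 1.58 and 7.59 ± 1.33 CPM per kb.

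Of the box C/D proteins, Nop56 had the highest level per kb, 25.6 ± 6.50 CPM per kb. Its abundance was lowest in tumour 05 at 44.0 CPM, with a median of 58.0 and a highest value of 94.6 CPM in tumour 06. The methyltransferase Fbl stood at 8.82 ± 1.23 and the core protein Nop58 at 7.14 ± 1.44 CPM per kb. Of the box H/ACA proteins, Nhp2 was highest at 155 ± 17.5 CPM per kb. Nhp2 abundance ran from 121 CPM in tumour 05 over a median of 166 to 186 CPM in tumour 13, and no tumour but 05 lay under 148 CPM. The small core protein Nop10 stood at 46.5 ± 9.13, Gar1 at 18.1 ± 3.66 and the pseudouridine synthase Dkc1 at 7.73 ± 1.62 CPM per kb. Levels per kb depend on the length used. With the union of all annotated exons, a choice made after seeing the data, Nhp2 stood at 42.5 CPM per kb, below Nop10 (46.4) of its own class, and Ncl, at 61.7, was the highest of the 40. On the same scale Fbl (1.94) lay below Nop58 (5.27), and Npm1 (13.0) below Nolc1 (18.9 CPM per kb).

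Among the small subunit factors, the RNA helicase Ddx21 was highest at 30.3 ± 5.44 CPM per kb. Ddx21 abundance ran from 109 CPM in tumour 10 over a median of 139 to 204 CPM in tumour 06. Noc4l (17.8 ± 4.81), Wdr43 (16.9 ± 3.77), Nop14 (15.5 ± 5.24), Rrp9 (14.6 ± 2.36) and Utp4 (13.0 ± 3.22 CPM per kb), all of the early small subunit particle, came next. Bysl stood at 10.6 ± 2.46, the large scaffold protein Heatr1 at 6.25 ± 1.06, the export factor Rrp12 at 5.66 ± 2.66 and Utp20, also a large scaffold protein, at 3.83 ± 0.510 CPM per kb. With union exon lengths the 5 genes of the early particle ran from 5.92 (Rrp9) and 6.44 (Utp4) to 14.9 CPM per kb (Nop14), and Bysl (10.6) lay above Rrp9 and Utp4.

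Among the large subunit factors, Pa2g4, which binds nascent ribosomes, was highest at 65.0 ± 11.3 CPM per kb. Pa2g4 abundance ran from 130 CPM in tumour 13 over a median of 159 to 205 CPM in tumour 06. Bop1, Pes1 and Wdr12 form one complex of large subunit maturation, and stood at 40.4 ± 5.27, 13.1 ± 1.85 and 2.16 ± 0.341 CPM per kb. The abundances of these 3 genes were positively but weakly related over the 10 tumours, with Pearson's r between 0.15 and 0.40. The nucleolar GTPase Gnl3 stood at 32.7 ± 7.29, the RNA methyltransferase Nop2 at 31.1 ± 7.09 and the helicase Ddx18 at 3.74 ± 0.690 CPM per kb. Of the other large subunit factors, Noc2l (37.9 ± 8.33), Nop16 (34.6 ± 4.63), Ppan (34.2 ± 7.27), Mrto4 (21.9 ± 3.25), Rrs1 (18.8 ± 2.50) and Nle1 (11.8 ± 2.93 CPM per kb) stood above Gtpbp4 (4.86 ± 0.884), Rrp1b (4.02 ± 1.34) and Noc3l (3.16 ± 0.637 CPM per kb). With union exon lengths Nle1 stood at 2.40 CPM per kb, below Gtpbp4 (4.47) and Noc3l (3.08).

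**Figure D1:**
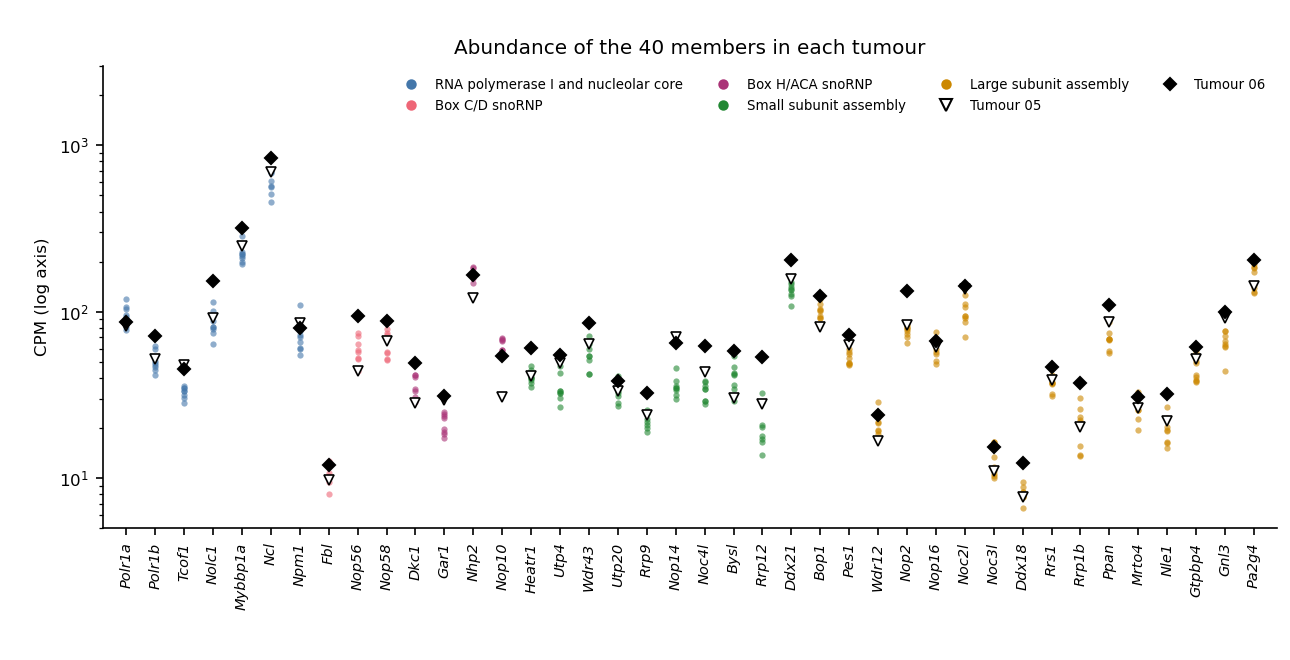
Abundance of each of the 40 ribosome biogenesis genes in CPM (log axis), 1 point per tumour, coloured by role, with tumour 05 as open triangles and tumour 06 as black diamonds. Tumour 06 lies at the top of 27 of the 40 columns, and tumour 05 at the bottom of 6, those of Nop56, Dkc1, Nhp2, Nop10, Bop1 and Wdr12.

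Most of these genes were even between tumours. Their median SD of log2 CPM was 0.27, beside 0.33 over all 12462 genes, and 31 of the 40 (77.5%) lay below that all-gene median, which 50% of all genes do by construction. The median ratio of the highest to the lowest tumour was 1.78 for the 40 genes and 2.10 for all genes. Since spread depends on abundance, each gene's biological coefficient of variation (BCV), the relative SD beyond counting error, was also set against edgeR's trend at its abundance, and 37 of the 40 (92.5%) lay below it, as did 76.5% of all genes. The 118 other ribosome biogenesis genes that could be matched had a median SD of 0.25, and the 74 ribosomal protein genes one of 0.38. No test was made of these differences in spread.

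The 3 steadiest members were Nhp2, Bop1 and Rrs1, with SDs of 0.18, 0.19 and 0.19 on the log2 scale. Bop1 ran from 80.5 CPM in tumour 05 over a median of 102 to 124 CPM in tumour 06. Rrs1, a factor that brings a small RNA of the large subunit into the particle, ran from 31.1 CPM in tumour 08 over a median of 37.5 to 46.5 CPM in tumour 06. For both genes the tumours formed a continuous range.

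The 3 most variable members were Rrp12, Rrp1b and Nop14, with SDs of 0.58, 0.48 and 0.43. Rrp12 (ENSMUSG00000035049, chromosome 19 from 41859483 to 41896153) ran from 13.8 CPM in tumour 07 over a median of 20.5 to 53.3 CPM in tumour 06, a 3.87-fold range. Tumour 13 came next to tumour 06, with 32.3 CPM. Rrp1b, a nucleolar factor of large subunit processing, ran from 13.5 CPM in tumour 04 over 21.9 to 37.1 CPM in tumour 06. Nop14 (ENSMUSG00000036693, chromosome 5 from 34638536 to 34660148) ran from 30.0 CPM in tumour 11 over 35.3 to 70.0 CPM in tumour 05. Tumours 05 and 06, at 70.0 and 65.2 CPM, were the only ones above 45.6 CPM, and both carried the same tag.

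**Figure D2:**
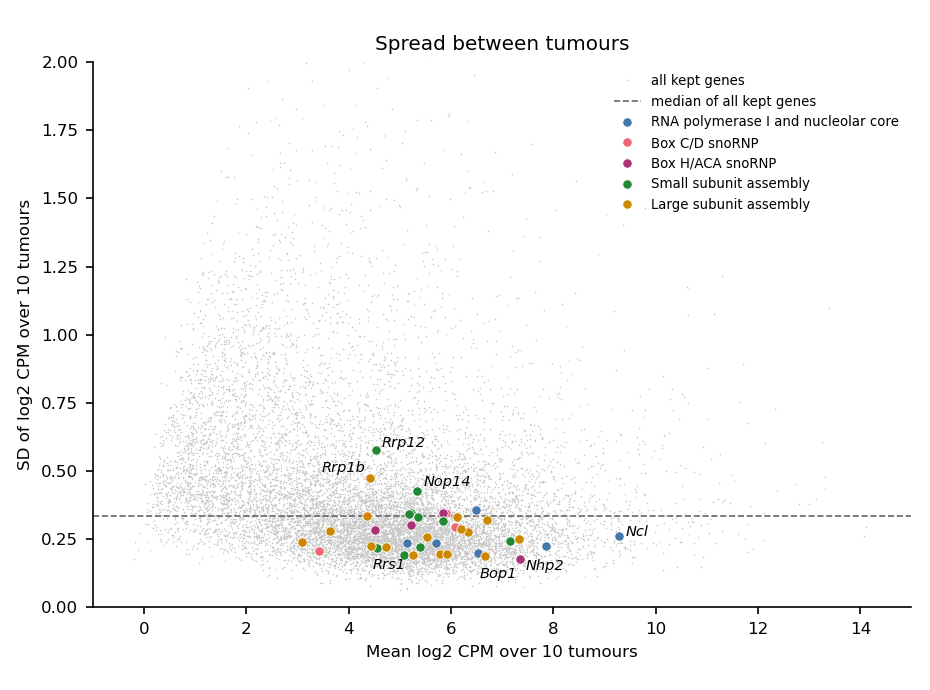
SD of log2 CPM over 10 tumours against mean log2 CPM, for all kept genes (grey) and the 40 members coloured by role; 34 genes with an SD above 2 are not drawn and the dashed line marks the median SD of all genes, 0.33. Rrp12, Rrp1b and Nop14 stand above the line and most members lie below it.

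Each tumour was then set against the other 9 with edgeR's quasi-likelihood test, for all 10 tumours in turn, to see where the members lie outside the spread of the rest. The single tumour is assumed to vary like the others, and the 10 comparisons share samples. In tumour 06 the members stood higher as a group. The fitted difference was above 0 for 38 of 40 members with a median of 0.49 on the log2 scale, beside a median of -0.04 over all genes. No member passed an adjusted p of 0.05 in tumour 06 (0.016% of all genes did), 16 of 40 were higher at an unadjusted p under 0.05, and 1.78% of all genes were. In either direction the count was the same 16 of 40 beside 3.22% of all genes, since no member was lower at that level, where 1.44% of all genes were.

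By role, the median difference in tumour 06 was 0.59 for the small subunit factors (6 of 10 at an unadjusted p under 0.05), 0.47 for RNA polymerase I and the nucleolar core (3 of 7), 0.43 for the large subunit factors (6 of 16), 0.41 for box C/D (1 of 3) and 0.24 for box H/ACA (0 of 4). All 10 small subunit and all 16 large subunit factors were on the higher side. The members that were not were Polr1a, at 86.1 CPM in tumour 06 against a median of 91.8 over the tumours, and Nop10, at 54.4 CPM against a median of 58.8. Counted by rank, tumour 06 was the highest of the 10 for 27 of the 40 members (67.5%), and for 7.48% of all genes.

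The smallest p in tumour 06 was that of Nop2 (ENSMUSG00000038279, chromosome 6 from 125131883 to 125144753), which methylates the large ribosomal RNA. Nop2 stood at 133 CPM in tumour 06, and between 65.0 CPM (tumour 11) and 83.5 CPM (tumour 12) in the other tumours. The difference was 0.79 ± 0.18 (SE) on the log2 scale, with an unadjusted p of 0.000775 and an adjusted p of 0.690. Rrp12, shown above, differed by 1.30 ± 0.36 (adjusted p = 1.00). Noc4l, a partner of Nop14 in small subunit assembly, stood at 62.1 CPM in tumour 06 and at 28.0 to 43.4 CPM elsewhere, a difference of 0.85 ± 0.23 (adjusted p = 1.00). Nolc1 stood at 154 CPM in tumour 06 and at 64.1 to 114 CPM elsewhere, and differed by 0.84 ± 0.25 (adjusted p = 1.00). Heatr1, part of the complex that links transcription to processing, stood at 60.5 CPM against 35.0 to 46.8 CPM, a difference of 0.58 ± 0.18 (adjusted p = 1.00). In all 5 of these genes the other 9 tumours lay below tumour 06, and each adjusted p was far from the threshold. The other members at an unadjusted p under 0.05 were Polr1b, Mybbp1a, Nop56, Wdr43, Rrp9, Ddx21, Pes1, Ddx18, Rrp1b, Ppan and Nle1, with differences between 0.43 (Pes1) and 0.84 (Rrp1b).

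In tumour 06 the other genes of the pathway also lay mostly above 0, and the ribosomal protein genes mostly below it. Of the 118 other biogenesis genes, 105 stood above 0 with a median of 0.29, and 19 (16.1%) were higher at an unadjusted p under 0.05 with none lower, beside 1.78% and 1.44% of all genes. Of the 74 ribosomal protein genes, 18 stood above 0, with a median of -0.10 and none at that level. Among other values of tumour 06, the hepatocyte markers summed to 63891 CPM, the highest of the 10 tumours, while their mean of 11.12 log2 CPM was second to tumour 12 (11.26). The macrophage markers summed to 344 CPM, the highest, while the endothelial markers (291 CPM) and the matrix markers (684 CPM) lay inside the range of the rest. Fewer cells of a type and less RNA per cell cannot be told apart in whole tumours, and the part of these markers in the result was not tested. For the chromosomes that carry a member, median deviations of the other genes in tumour 06 lay between -0.20 (chromosome 15) and 0.12 (chromosome 5), beside 0.45 for the 40 members. Bop1, which lies on chromosome 15, was highest in tumour 06.

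Tumours 05, 06 and 07 also held more of Rpph1 and Rmrp, the RNAs of the enzymes RNase P and RNase MRP, which have no poly(A) tail. The 4 matched genes of that kind summed to 60.1, 47.1 and 83.6 CPM, against 1.64 to 6.46 CPM in the other 7 tumours. These sums rest on 2 genes, since Rpph1 had 1975 and Rmrp 1123 counts over the 10 tumours, and Rny1 and Rny3 had 5 and 4. As medians of log2 CPM differences chosen after seeing the data and with no test, tumour 06 stood 0.52 above those 7 tumours (37 of 40 members higher), 0.40 above tumour 05 (37 of 40) and 0.48 above tumour 07 (35 of 40). Tumour 05 carried the same tag as tumour 06.

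**Figure D3:**
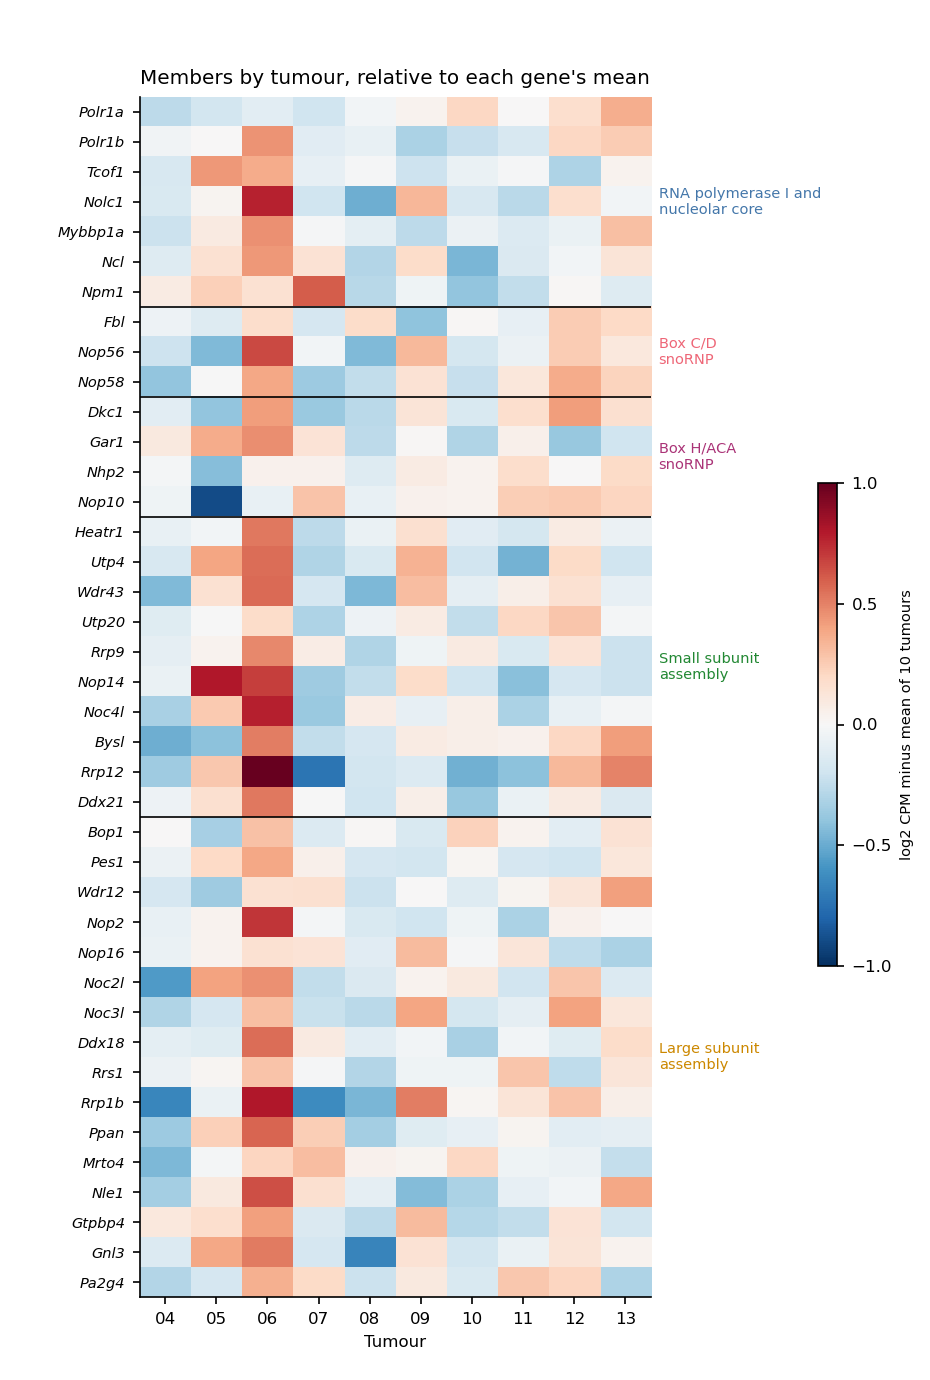
Log2 CPM of each of the 40 members in each tumour minus that gene's mean over the 10 tumours, grouped by role, red for higher and blue for lower. Tumour 06 is red for 38 of 40 genes, tumour 05 is blue for 17 of 40, most strongly for Nop10 and then Nop56, Nhp2, Bysl and Dkc1, and the colour scale ends at 1, which Rrp12 in tumour 06 passes.

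Tumours 08 and 04 lay at the other end. The median fitted difference was -0.23 in tumour 08 (4 of 40 above 0) and -0.18 in tumour 04 (3 of 40), and tumours 10 and 07 followed at -0.15 and -0.13. No member passed an adjusted p of 0.05 in these 4 tumours, where 0%, 0%, 0% and 0.00802% of all genes did, and at an unadjusted p under 0.05 the counts were 1, 0, 0 and 1 of 40 beside 1.34%, 2.48%, 2.05% and 8.88% of all genes. The 1 member in tumour 08 was Gnl3, which was lowest there at 44.1 CPM, against 61.2 to 99.7 CPM in the other tumours, a difference of -0.75 ± 0.29 (adjusted p = 1.00). The 1 member in tumour 07 was Npm1, at 110 CPM against 54.6 to 84.9 CPM, a difference of 0.66 ± 0.23 (adjusted p = 0.471). Tumour 07 had the highest ribosomal protein genes (median difference 0.60), the most blood transcripts (6181 CPM of haemoglobin and related genes, against 101 to 1775 CPM) and the lowest gene count total, and in it short transcripts were relatively high (Spearman's rho of deviation with transcript length -0.22 across genes). The part of length and blood in the value of Npm1 was not tested.

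In tumour 05 the box H/ACA proteins differed among themselves. Nop10 (ENSMUSG00000027133, chromosome 2 from 112261926 to 112262898), the smallest of the core proteins, stood at 30.7 CPM in tumour 05 and at 54.4 to 69.6 CPM in the other 9. The difference was -1.01 ± 0.21 with an adjusted p of 0.0781 by edgeR's quasi-likelihood test, and DESeq2's Wald test gave it an adjusted p of 0.00321, the single call of a member by either tool in any of the 10 comparisons. In tumour 05 edgeR called 0.0481% of all genes, and DESeq2 called 261 of 11495 (2.27%), so that 1 of 40 members was near DESeq2's background. Nhp2 and Dkc1 were also lowest in tumour 05, with differences of -0.48 ± 0.19 (adjusted p = 0.309) and -0.46 ± 0.30 (adjusted p = 0.514). Gar1, the remaining core protein, stood at 29.3 CPM in tumour 05 against a median of 23.1, a difference of 0.40 ± 0.28 (adjusted p = 0.541). So 3 of the 4 were at their lowest there and the other was near its highest. Tumour 05 was also the lowest for Nop56, Bop1 and Wdr12, which makes 6 of 40 members (15%), beside 15.6% of all genes. Nop10, Nhp2 and Gar1 have short canonical transcripts, of 1259, 1054 and 1272 bases, and that of Dkc1 has 4877 bases. Length thus did not separate Gar1 from Nop10 and Nhp2. In tumour 05 deviations rose weakly with transcript length across genes (Spearman's rho 0.11), with a median of -0.02 for the shortest 10% of genes and 0.14 for the longest 10%, and the mean of the hepatocyte markers was the lowest of the 10 tumours (10.29 log2 CPM), while their sum of 45347 CPM was second lowest to tumour 10 (42630 CPM). The part of either in these values was not tested. In the same tumour Nop14 was 0.85 ± 0.32 higher (adjusted p = 0.287). Over all 40 members the median in tumour 05 was 0.01, and 3 of 40 had an unadjusted p under 0.05 beside 14.1% of all genes. In tumours 09, 11, 12 and 13 no member passed an adjusted p of 0.05, beside 0.0401%, 0%, 0.016% and 0% of all genes, or even an unadjusted p under 0.05, beside 6.19%, 3.4%, 5.99% and 2.18%, and the medians lay between -0.10 and 0.11.

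**Figure D4:**
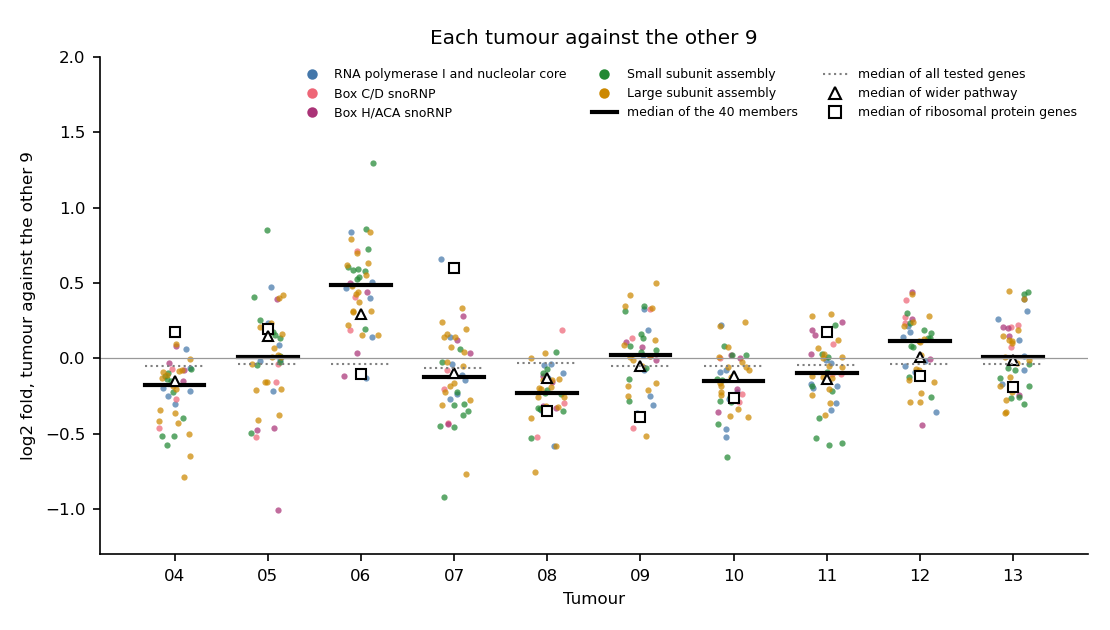
Fitted log2 fold of each tumour against the other 9, 1 point per member coloured by role, with the median of the 40 members (black bar), of all tested genes (dotted), of the 118 other biogenesis genes (triangle) and of 74 ribosomal protein genes (square). The members' median is 0.49 in tumour 06 and between -0.23 and 0.11 elsewhere, and the ribosomal protein genes peak in tumour 07.

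Pairs of members were more often positively related over the tumours than pairs of genes at large. Over the 780 pairs the median Pearson's r of log2 CPM was 0.42, with 84.6% of pairs above 0, while the median over all pairs of kept genes was -0.001 with 49.8% above 0. These values describe 10 tumours that share tags, and carry no test. Without tumour 06 the median r of the members was 0.15. Small subunit factors were the most alike, with a median r of 0.63 and all 45 pairs above 0, and the box H/ACA proteins the least, with a median of 0.18 and 3 of 6 pairs above 0. The mean log2 CPM of the 40 members was 5.64 ± 0.18 (SD, n = 10), from 5.45 in tumour 08 to 6.08 in tumour 06. That is a 1.55-fold range, which was 1.20-fold without tumour 06.

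Nolc1 followed the mean of the other 39 members most closely (r = 0.92), then Wdr43 (0.88), Heatr1 (0.86) and Rrp12 (0.85). Nop10 (-0.11), Polr1a (0.06), Nhp2 (0.09) and Nop16 (0.17) followed it least. Polr1a, the largest subunit of the polymerase itself, was lowest in tumour 04 (77.2 CPM) and highest in tumour 13 (119 CPM) with a median of 91.8. Outside every list used here, the genes closest to the mean of the members were Ccdc86 (r = 0.96), Tut1 (0.93), Fkbp5 (0.90), Hars1 (0.89) and Flad1 (0.88), over 10 tumours.

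Mouse Myc stood at 60.1 CPM in tumour 04, the lowest, at 63.4 to 86.0 CPM in 7 tumours, at 97.9 CPM in tumour 06 and at 136 CPM in tumour 05. A slope of each gene on log2 CPM of Myc was fitted across all genes, to ask whether members rise with the counted mouse gene. No member passed an adjusted p of 0.05 by edgeR's quasi-likelihood test (0% of 12461 genes did), and none by DESeq2's Wald test, which called 212 of all genes. At an unadjusted p under 0.05 there were 7 of 40 members (17.5%), beside 14.9% of all genes, so that over all 10 tumours the share was near the background. The slope was positive for 6 of the 7 and negative for 1, beside 9.51% and 5.38% of all genes. The slope was above 0 for 32 of 40 members, with a median of 0.26 (log2 per log2) beside -0.02 over all genes. The median was 0.13 without tumour 06 and 0.53 without tumour 05. Members with an unadjusted p under 0.05 numbered 8 of 40 without tumour 05, beside 7.83% of all genes. Without tumour 04 they numbered 6 of 40, beside 19.2%, so that the share against the background depended on single tumours.

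All 10 small subunit factors had a positive slope on Myc, with 4 of 10 at an unadjusted p under 0.05, and 1 of the 4 box H/ACA proteins did. The steepest was Rrp12 at 1.23 ± 0.48 (SE, adjusted p = 0.268), which was 0.79 without tumour 06 and 2.19 without tumour 05. Nop14 had the smallest p, with a slope of 0.99 ± 0.26 (adjusted p = 0.149). Its Pearson's r with Myc was 0.78 (permutation p = 0.00752, adjusted over all genes 0.277, n = 10, two-sided), its Spearman's rho 0.45 (permutation p = 0.190, adjusted 0.760), and r was 0.72 without tumours 04 and 05, those farthest from the median of Myc. Tumours 05 and 06 had the highest values of both genes. Noc2l, a partner protein of large subunit export, ran from 70.1 CPM in tumour 04 over a median of 101 to 142 CPM in tumour 06 and had a slope of 0.78 ± 0.22 (adjusted p = 0.170). Noc4l, Tcof1 and Utp4 had slopes of 0.81 ± 0.26, 0.54 ± 0.19 and 0.70 ± 0.27 (adjusted p = 0.207, 0.230 and 0.268). Nop10 had the single negative slope of that size, -0.80 ± 0.26 (adjusted p = 0.201), and it was -0.20 without tumour 05. With the tag family as a further term, 3 of 40 members (Nop10, Nop14 and Noc2l) had an unadjusted p under 0.05, beside 8.41% of all genes. With the tag itself as a block, a fit added after seeing the data, 3 of 40 (Nop10, Ppan and Pa2g4) did, beside 4.22% of all genes, and the members' median slope turned to -0.52. Over the tags together the median slope on Myc was therefore not positive, but single tags differed. In tumours 11, 12 and 13 log2 CPM of Myc was 6.11, 6.34 and 6.43, and the members' mean was 5.58, 5.72 and 5.69. In tumours 05 and 06 Myc was 7.09 and 6.62, and the members' mean was 5.66 and 6.08. Of tumours 07 and 08, and of tumours 09 and 10, the one with the higher Myc also had the lower mean.

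**Figure D5:**
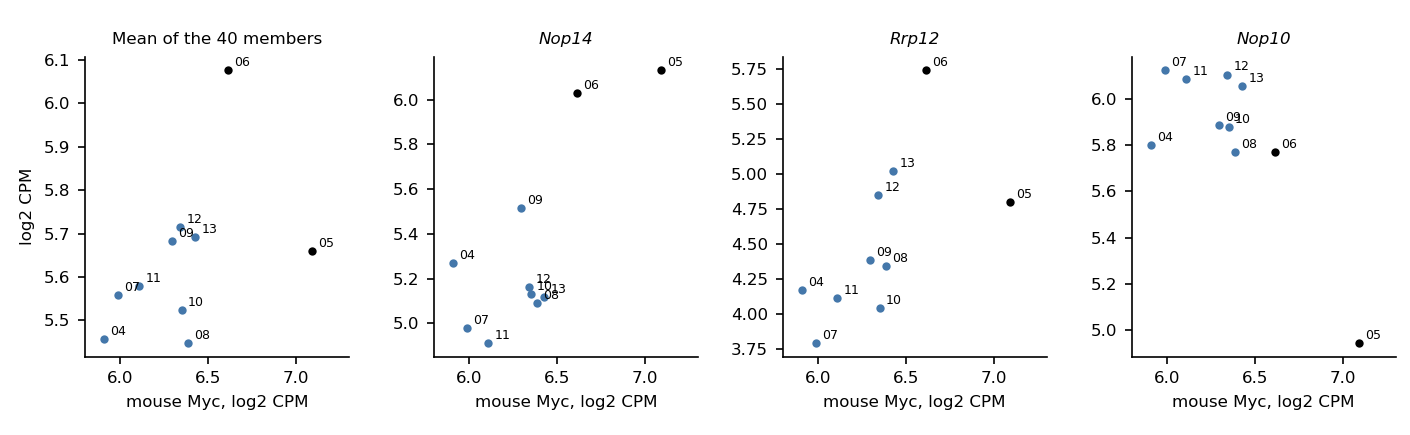
Mean log2 CPM of the 40 members, and log2 CPM of Nop14, Rrp12 and Nop10, against log2 CPM of mouse Myc, 1 point per tumour labelled with its number and with tumours 05 and 06 in black. Tumour 05 has the highest Myc, the highest Nop14 and the lowest Nop10, and tumour 06 the highest mean of the members.

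Of the 118 other biogenesis genes, none passed an adjusted p of 0.05 on Myc, and 22 had a positive and 3 a negative slope at an unadjusted p under 0.05 (21.2%), beside 9.51% and 5.38% of all genes (14.9% in all), with a median slope of 0.25. The smallest p was that of Tex10, a large subunit factor, with a slope of 1.14 ± 0.24 (adjusted p = 0.114), followed by Gnl2 (0.81 ± 0.20, adjusted p = 0.139), Exosc10 of the RNA exosome (0.57 ± 0.17, adjusted p = 0.179), Sdad1 (1.04 ± 0.31, adjusted p = 0.183) and the kinase Riok1 (0.67 ± 0.21, adjusted p = 0.199). The ribosomal protein genes had a median slope of -0.25.

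On the mean of proliferation genes, which differed 2.30-fold between tumours 05 and 08, no member passed an adjusted p of 0.05 (0% of 12436 genes did), none by DESeq2 (61 genes in all), and 0 of 40 had an unadjusted p under 0.05 beside 8.56% of all genes. Without tumour 08 the count was 5 of 40 beside 12.4% of all genes, and without tumour 06 it was 2 beside 8.12%. The members' median slope was 0.05, with 21 of 40 above 0. Gar1 had the smallest p, with a slope of -0.46 ± 0.22 (adjusted p = 0.605). It ran from 17.4 CPM in tumour 12 over 23.1 to 31.3 CPM in tumour 06, and its Pearson's r with the score was -0.61 (permutation p = 0.0593, adjusted 0.691), its rho -0.64 (permutation p = 0.0546, adjusted 0.544), and r without tumours 05 and 08 was -0.42. Of the 118 other genes, 9 (7.63%) had an unadjusted p under 0.05, below the 8.56% of all genes. Those 9 slopes were negative, where all genes had 578 negative and 486 positive slopes at that level. Zfp622 was among the 9, at -0.90 ± 0.23 (adjusted p = 0.308).

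On the mean log2 CPM of endothelial, matrix and macrophage markers, which differed 3.99-fold between tumours 05 and 09, no member passed an adjusted p of 0.05. By edgeR 1.25% of all genes did, and the larger count by DESeq2, with no member in it, is given in the last section. At an unadjusted p under 0.05 there were 0 of 40 members beside 9.67% of all genes. By summed CPM tumour 05 was above the median tumour in matrix markers (1296 against 762) and endothelial markers (249 against 225). In macrophage markers tumour 05 was below it (121 against 180). With the tag as a block, 5 of 40 (Ncl, Nolc1, Nop56, Wdr43 and Ddx21) had an unadjusted p under 0.05, beside 10.8% of all genes. The members' median slope was 0.05, and it was -0.02 without tumour 06. Nop16, a large subunit factor, had the smallest p with a slope of 0.16 ± 0.09 (adjusted p = 0.612). It ran from 48.3 CPM in tumour 13 over 60.6 to 75.0 CPM in tumour 09, with r = 0.64 (permutation p = 0.0491, adjusted 0.487), rho = 0.59 (permutation p = 0.0792, adjusted 0.807) and r = 0.29 without tumours 07 and 09, those farthest from the median of the score. The correlation thus rests on those tumours, without which the score also covers a narrower range. The slope was 0.12 to 0.19 with 1 tumour left out at a time and 0.09 ± 0.16 without both. Of the 118 other genes 3 had an unadjusted p under 0.05, with Rsl24d1 and Rpf2 positive and Urb1 negative.

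Between the 3 families given by the first part of the tag (tumours 04 to 06, 07 and 08, and 09 to 13), no member passed an adjusted p of 0.05 by edgeR's quasi-likelihood test (0.00802% of all genes did). None passed by DESeq2's likelihood ratio test, whose count over all genes was not recorded, so that this 0 has no background beside it. By edgeR 3 of 40 (7.5%) had an unadjusted p under 0.05 beside 14% of all genes. They were Nop14, Gnl3 and Gar1. Nop14 had mean log2 CPM of 5.81, 5.04 and 5.17 in the 3 families (adjusted p = 0.241), and Gnl3 6.38, 5.71 and 6.13 (adjusted p = 0.344). Both were highest in the family that holds tumours 05 and 06.

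The 7 members with an E-box in the promoter window had a median difference of 0.60 in tumour 06, between 0.19 (Utp20) and 0.79 (Nop2), and the 27 without it one of 0.49, between -0.13 and 0.85. The ranges overlapped over most of their length, and both groups had a median SD of 0.28 between tumours.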

How the data were processed

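RNA of 10 liver tumours was used. The authors deposited 1 table of raw read counts per gene, and the submitters' processing notes name TopHat2, HTSeq and GRCm38 with no versions. The study's methods name another aligner and counter for single-end reads, and whether these counts used the strand of the stranded kit is not given in the sources used here. Summary lines stayed out of library sizes and tests. Between 45.4% and 57.9% of a tumour's total were reads not uniquely aligned, 3.60% to 6.97% lay in no gene and 1.16% to 1.66% were ambiguous. Columns were tied to tumours by the number in the title, which held for 10 of 19 columns, and that the number in a column name is the tumour number is assumed. The other 9 columns were not used. Gene symbols came from GENCODE M39 by identifier (34199 of 39179 matched), positions and promoters from RefSeq GRCm38.p6. No 2 libraries agreed within sampling noise (45 pairs, chi-square per degree of freedom at least 58.1).

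The members and all lists were chosen with earlier results of these data known. Counts were filtered with filterByExpr and scaled with TMM in edgeR 4.0.16 (R 4.3.3, limma 3.58.1), with factors from 0.927 to 1.11, and log2 CPM used a prior count of 2. Tests were edgeR's quasi-likelihood F tests over all kept genes with Benjamini-Hochberg adjustment. They were checked on simulated data, where the smaller differences tried, all larger than the members' medians, were missed in every case on Myc, on proliferation and in tumour 06. A member that did not pass there is not shown to be unchanged. Permutation tests used SciPy 1.17.1 with 100000 resamples. Named were the highest member per kb of each role, the 3 with the largest and smallest SD, up to 6 members by smallest p per slope, up to 5 genes of the wider list and the 5 closest genes. Other members were named after their values were seen. Alternatives were DESeq2 1.42.0 and its size factors, no filter, a prior count of 0.5, leaving out each tumour, and tag family or the summed RNA without a poly(A) tail as a further term. The tag as a block, tumours 07 and 09 left out together and union exon lengths were added after seeing the data.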

Additional observations from a re-analysis of the deposited data

Results flagged for a closer look

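In 7 of 49 values examined, the highest or lowest of the 10 tumours stood apart from the rest by a larger share of the whole range than Dixon's 95% limit for 10 samples allows. Of the 40 single members 4 passed that limit, beside 6.03% of all kept genes, where chance gives about 1 in 20. The limit is no test of the means, since the members were chosen with earlier results known. Tumour 06 was the highest for the mean of the members (gap 0.574 of the range), for the mean of the large subunit factors (0.592), for the mean of the small subunit factors (0.507), for Nop2 (0.652) and for Heatr1 (0.469). Tumour 05 was the lowest for Nop10 (0.700) and for Nhp2 (0.477). The 4 single genes are members with values in the report, and the 3 means contain some of them, so that these 7 values are not independent of each other.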

How the results depend on the processing

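No paired analysis was possible because a single group of tumours was used, so that replicate numbers pair no samples between groups. The tag, which 2 or 3 tumours share, was used as a block in fits added after seeing the data. Under this block the members' median slope on Myc was -0.52 against 0.26, and members with an unadjusted p under 0.05 numbered 3 on Myc against 7 (4.22% of all genes), 2 on proliferation against 0 (6.26%) and 5 on the stromal score against 0 (10.8%). No member passed an adjusted p of 0.05 under any alternative of the slopes or the tag families. Under DESeq2's Wald test 1 member, Nop10 in tumour 05, passed over the 10 comparisons of single tumours, against 0 by edgeR. That test also called more genes in all, 212 against 0 on Myc, 61 against 0 on proliferation, 388 against 155 on the stromal score, and 3 (tumour 10) to 261 (tumour 05) over the single tumours, with 12 in tumour 06, against 0 to 6 by edgeR. Members with an unadjusted p under 0.05 on Myc numbered 3 with the tag family as a further term, against 7 (8.41% of all genes). On proliferation they numbered 1 with no filter (8.6% of all genes), 1 with the tag family (5.73%) and 1 with RNA without a poly(A) tail as a further term (3.59%), against 0, and on the stromal score 1 with the tag family (10.2%), against 0. Leaving out 1 tumour at a time gave 5 to 8 on Myc (7.83% to 19.2% of all genes). The ends of these ranges do not pair, since 7.83% went with 8 members (without tumour 05) and 19.2% with 6 (without tumour 04). On proliferation the counts were 0 to 5 (4.38% to 12.4%) and on the stromal score 0 to 1 (7.32% to 15%). In all, 0 to 107 genes were called on Myc and 40 to 477 on the stromal score. The range of the members' mean was 1.20-fold to 1.55-fold, the median SD 0.23 to 0.28 and the median r 0.15 to 0.46, the lowest of each without tumour 06. The members' median slope ran from 0.13 to 0.53 on Myc, from -0.06 to 0.22 on proliferation and from -0.02 to 0.08 on the stromal score, so that the sign of the latter slopes changed. The cause of these changes was not tested.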
